A study of Mus musculus with 8 samples.

Results

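Interferon-inducible genes were followed across 4 populations of mouse CD4 T cells, taking every probe whose name in the array files belongs to the guanylate-binding proteins, the immunity-related GTPases, the Mx GTPases, the oligoadenylate synthetases, the Ifit, Ifitm, Ifi and Isg genes, or the Irf and Stat transcription factors of interferon signalling. The choice was made by a rule on names and not on values, but with earlier results of these data known. It gave 84 of the 41174 probes on the array, which stand for 52 of 27620 genes. Several carry older names in the files and are called here by their current symbols. They are Gbp2b (Gbp1 in the files), Gbp3 (Gbp4), Irgm1 (Irgm), Irgm2 (Iigp2), Tgtp1 (Tgtp), Irf9 (Isgf3g), Ifi27l2a (Ifi27) and Aen (Isg20l1). Aen and Isg20l2 are included through their names only.

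Interferons act on neighbouring cells through surface receptors. Type I interferon leads to a complex with Stat2 and Irf9 that binds interferon-stimulated response elements, while interferon gamma acts on genes through gamma-activated sites. The genes switched on this way include GTPases that attack the compartments of intracellular microbes, enzymes that sense double-stranded RNA, and membrane proteins that block virus entry. T cells both make interferon gamma and carry the receptors for it.

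The arrays held labelled RNA from sorted CD4+ T cells of male C57BL/6 mice, 15 weeks old, from pooled spleen and lymph nodes, with 2 arrays for each of the sorts naive, CD44lo, CD44hi and Treg, the last short for regulatory T cells. The series title names Ox40-cre/ROSA-YFP mice, a strain in which Cre made under control of the Ox40 gene (Tnfrsf4) switches on a YFP reporter for good. Neither the surface markers used in the sort nor the YFP status of any group is given in the labels, and no treatment is named. The titles give the arrays of a group the numbers 1 and 2 and do not tell if they come from different animals or pools, so p-values reflect only the spread within these groups of 2, which could be technical.

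Levels are given as the log2 processed signal minus the 75th percentile of the same array, so that 0 is the brightness of the probe at that percentile. Levels of different genes are not set against each other, because each probe has its own brightness. Between 59.2% and 68.8% of all probes were well above background, the lowest share being on naive array 2, which also had the lowest 75th percentile (639 against 991 to 1337 on the other arrays). Of the member probes, 89.3% to 92.9% were well above background on each array. Among the 52 genes, 48 were above background on all 8 arrays and none was saturated, and 49 could be tested. Ifi202b and Oas1g were not well above background on any array, and Oas1h was so on only 2. Foxp3, the factor that defines regulatory T cells, had a mean level of -5.05 in naive, 0.59 in CD44lo, -0.17 in CD44hi and 2.73 in Treg. Cd44 was highest in CD44hi (4.44 on average), and the pan-T and CD4 markers were well above background on all 8 arrays.

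Interferon-inducible genes moved in both directions. Gbp2b, Gbp3 and Gbp5 rose in every other group over naive and were highest in Treg. Mx1 and Oas3 were highest in CD44hi, while Oas2, Oasl1 and Ifit2 fell in CD44hi and in Treg. Differences were tested with limma over 17968 genes and called where the p adjusted by Benjamini-Hochberg was under 0.05. At least 1 of the 6 comparisons called 25 of the 49 tested genes, and 24 were called in none. Each gene is given by its brightest probe unless another is named. Among the 21 genes with other tested probes, 8 differences in 6 genes passed on another probe and not on the brightest, and they belong to Ifi27l2a, Ifih1, Irf8, Irgm1, Isg20 and Oas3. Of these, Ifih1 and Irgm1 were otherwise called in no comparison.

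In CD44lo against naive, 5 members were higher and 0 lower, where 5.3% of all genes tested were called, 4.54% higher and 0.762% lower. In CD44hi against naive, 14 were higher (28.6% of the members tested) and 7 lower (14.3%), against 13.3% and 14.5% of all genes and 27.8% in either direction. In Treg against naive, 11 were higher (22.4%) and 5 lower (10.2%), against 11.6% and 10.3% of all genes, or 21.9% in either direction. The share called lower among members was near that of all genes in these last 2 comparisons, and the share called higher lay above it. CD44hi against CD44lo gave 4 higher and 3 lower members, with 6.07% and 3.31% of all genes called (9.38% together). Treg against CD44lo gave 4 higher and 1 lower (3.71% and 1.87% of all genes, 5.58% together). Treg against CD44hi gave 6 higher and 3 lower (4.16% and 4.05%, 8.2% together). Comparisons that use the same naive arrays are not independent of each other.

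The members showed no common shift in 1 direction. The medians given here are of signed differences, in which rises and falls cancel, and do not measure how far single members moved. The median log2 difference of the 49 members was -0.20 in CD44lo, -0.13 in CD44hi and -0.06 in Treg against naive, beside -0.13, -0.15 and -0.20 for all genes tested. Between the other groups the members' medians were 0.01 for CD44hi against CD44lo, 0.04 for Treg against CD44lo and 0.03 for Treg against CD44hi, beside -0.04, -0.07 and -0.04. All 63 calls of a member in a comparison had the same sign on both slides, each of which held 1 array of every group. The calls were selected on the agreement of these same arrays, so the shared sign largely follows from the calling and is no replication.

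The number of calls depended on single arrays. Without naive array 1, the counts rose to 20 members in CD44lo (9 higher and 11 lower), 32 in CD44hi (15 and 17) and 29 in Treg (15 and 14) against naive. All genes rose with them, to 40.0%, 51.3% and 51.1% called, beside 40.8%, 65.3% and 59.2% of the members. Without CD44hi array 2, CD44hi against naive gave 13 (14.5% of all genes were called). Treg against naive gave 10 without Treg array 1 (12.4%) and 9 without Treg array 2 (9.96%). CD44lo against naive gave 3 without CD44lo array 2 (2.82%). CD44hi against CD44lo gave 0 without CD44lo array 1 (2.86%), 2 without CD44lo array 2 (4.83%) or CD44hi array 2 (4.42%), 4 without either Treg array (6.86%) and 14 without either naive array (15.4%). Treg against CD44lo gave 2 without CD44lo array 1 (1.05%) or Treg array 2 (1.29%), 3 without CD44lo array 2 (2.54%) or Treg array 1 (2.17%) and 10 without either naive array (9.13%). Treg against CD44hi gave 5 without CD44hi array 2 (4.3%), 4 without Treg array 1 (2.98%) or Treg array 2 (3.52%) and 14 without either naive array (14.6%). With the slide as a block, CD44hi against CD44lo gave 2 higher and 2 lower members (7.72% of all genes).

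**Figure D1:**
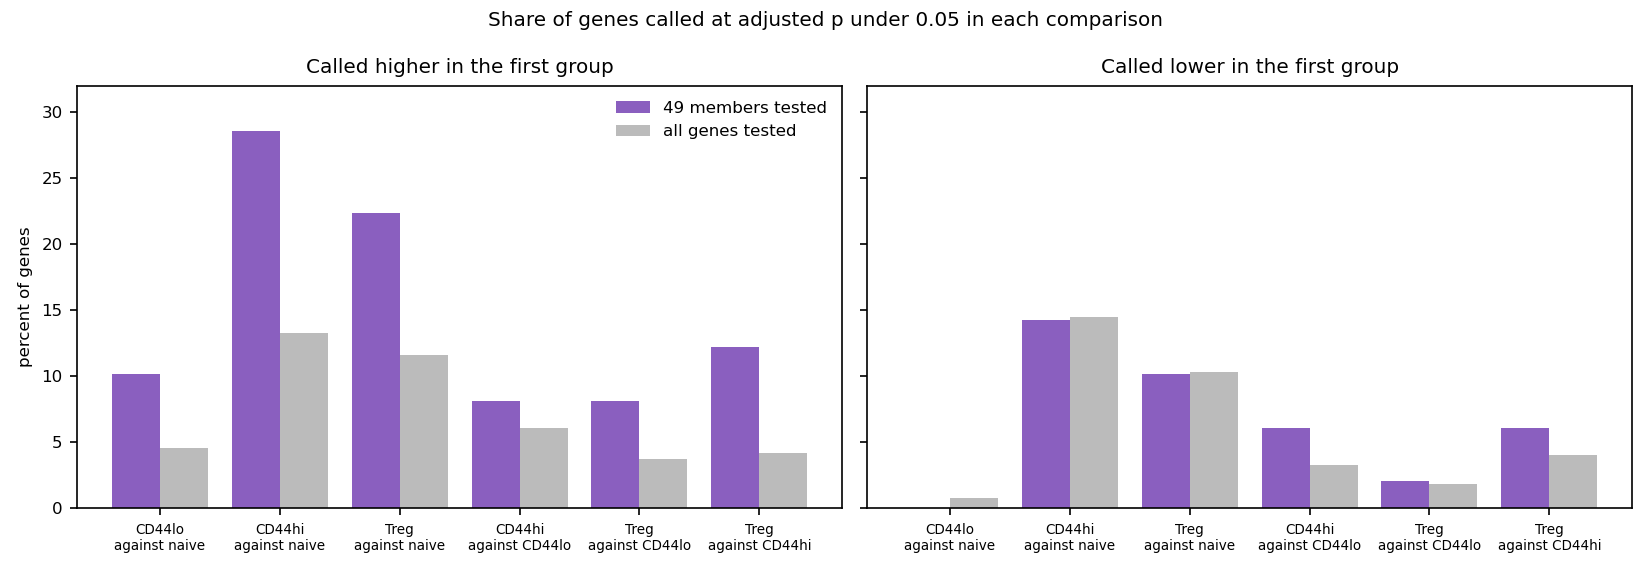
Percent of the 49 tested member genes (purple) and of all 17968 tested genes (grey) called higher (left) or lower (right) in the first-named group of each comparison, at adjusted p under 0.05. Members exceed the background on the left, for example 28.6% against 13.3% in CD44hi against naive, but by little in CD44hi against CD44lo (8.16% against 6.07%). On the right they lie near it in the comparisons of CD44hi and Treg with naive.

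Of the 4 guanylate-binding proteins, 3 rose over naive in CD44lo, CD44hi and Treg. Guanylate-binding proteins are large GTPases that coat vacuoles and bacteria in the cytosol and help to set off inflammasomes. The 4 measured here are neighbours on chromosome 3. The 250 bases before an annotated start of each of the 3 genes that moved together are shown, from RefSeq (build GRCm38.p6). They run 5′ to 3′ on the strand of the gene. Capitals mark matches on either strand to the core of the interferon-stimulated response element, which is GAAA, any 2 bases and GAAA again, and to TTCNNNGAA, the core of a gamma-activated site.
Gbp2b, chr3:142594597-142594846, + strand: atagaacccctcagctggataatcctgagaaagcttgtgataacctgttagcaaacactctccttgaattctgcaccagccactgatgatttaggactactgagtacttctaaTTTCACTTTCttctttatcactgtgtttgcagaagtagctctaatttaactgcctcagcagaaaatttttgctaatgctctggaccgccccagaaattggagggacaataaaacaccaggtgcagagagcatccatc
Gbp3, chr3:142559794-142560043, + strand: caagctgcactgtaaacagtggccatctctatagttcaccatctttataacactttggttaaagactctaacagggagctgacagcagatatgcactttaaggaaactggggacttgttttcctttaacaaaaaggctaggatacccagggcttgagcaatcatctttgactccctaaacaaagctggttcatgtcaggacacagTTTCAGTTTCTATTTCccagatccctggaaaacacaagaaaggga
Gbp5, chr3:142496684-142496933, + strand: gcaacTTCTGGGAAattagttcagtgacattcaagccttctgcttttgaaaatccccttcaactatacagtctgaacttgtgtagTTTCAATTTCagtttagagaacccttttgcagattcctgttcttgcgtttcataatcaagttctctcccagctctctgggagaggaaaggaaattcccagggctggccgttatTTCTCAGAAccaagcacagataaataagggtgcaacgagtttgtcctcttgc

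Each of the 3 windows shown holds the response element core in reverse, at 137 to 128 bases before the start in Gbp2b, at 165 to 156 in Gbp5 and as 2 overlapping matches between 45 and 30 in Gbp3. Gbp3 has a second annotated start, whose window (chr3:142560106-142560355, not shown) holds no match to either core. Gbp5 also holds 2 matches to the gamma-activated site core, 245 to 237 and 52 to 44 bases before the start. Gbp2, which passed no test, holds the response element core as well.
Gbp2, chr3:142620604-142620613, + strand: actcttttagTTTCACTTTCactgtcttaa

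Gbp2b lay at -8.40 and -8.02 on the naive arrays, -3.50 and -2.97 in CD44lo, -3.84 and -3.98 in CD44hi, and 0.52 and 0.49 in Treg. The 4 groups split into 3 tiers, with naive lowest, CD44lo and CD44hi together and Treg on top. On the naive arrays the probe was not well above background, so only a bound holds there: Gbp2b was at least 92.9-fold higher in Treg, at least 6.94-fold higher in CD44lo and at least 4.34-fold higher in CD44hi (adjusted p 1e-05, 0.00013 and 6.1e-05). Each bound sets the mean of the brighter group against the dimmest signal called well above background on each naive array. Treg exceeded CD44lo by log2 3.74 ± 0.22 (SE, 13.4-fold, adjusted p 0.00097) and CD44hi by 4.42 ± 0.22 (21.4-fold, adjusted p 0.00032). CD44lo and CD44hi did not pass the test between them (log2 -0.68 ± 0.22, adjusted p 0.129). With the normexp background correction the log2 difference from naive was 4.39 in Treg, 1.16 in CD44lo and 0.71 in CD44hi, all still called. These lie below the bounds, which are 6.54, 2.79 and 2.12 in log2, so the bounds do not hold across background corrections.

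Gbp3 lay at 0.40 and 0.70 in naive, 1.77 and 2.02 in CD44lo, 2.58 and 2.27 in CD44hi, and 3.96 and 3.94 in Treg. No groups overlapped, and the order was naive, CD44lo, CD44hi, Treg. The rise over naive was 2.54-fold in CD44lo (adjusted p 0.0087), 3.68-fold in CD44hi (0.00069) and 10.6-fold in Treg (8.4e-05), and Treg exceeded CD44hi by 2.87-fold (0.0051). The neighbours CD44lo and CD44hi did not differ beyond the test (log2 0.54 ± 0.19, adjusted p 0.155). Without CD44lo array 2 the rise of Gbp3 in CD44lo missed the threshold (adjusted p 0.0902).

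Gbp5 lay at 0.39 and 0.59 in naive, 1.33 and 1.43 in CD44lo, 1.41 and 1.18 in CD44hi, and 2.83 and 2.69 in Treg. The arrays of CD44lo and CD44hi overlapped each other and lay between the other groups. Treg stood 4.85-fold above naive (adjusted p 2e-04), 2.61-fold above CD44lo (0.00732, lost without CD44lo array 1 or either Treg array at up to 0.0755) and 2.77-fold above CD44hi (0.00326). The smaller rises over naive were 1.85-fold in CD44lo (adjusted p 0.0257) and 1.75-fold in CD44hi (0.0121). The first of these was lost without either CD44lo array or either Treg array, at adjusted p up to 0.231 over the alternatives, and the second without CD44hi array 1 (up to 0.092).

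Gbp2 had its highest mean in Treg too, at 3.42 against 2.75 in naive, 2.50 in CD44lo and 2.59 in CD44hi, but no comparison passed (adjusted p 0.0702 for Treg against naive). Its naive arrays lay at 2.43 and 3.06, a gap about as wide as the difference itself. Among relatives that the files list under other names, a list drawn up after the file names were seen, 14 were tested. Against naive 1 rose and 0 fell in CD44lo (7.14% and 0%, beside 4.54% and 0.762% of all genes). In CD44hi 3 rose and 1 fell (21.4% and 7.14%, beside 13.3% and 14.5%). In Treg 4 rose and 2 fell (28.6% and 14.3%, beside 11.6% and 10.3%). Gbp6 and Gbp7 were higher in Treg by 1.83-fold (adjusted p 0.0108) and 2.33-fold (0.0218), Ifitm7 was 3.02-fold higher (0.0396) and Ifitm10 3.26-fold lower (8.0e-04).

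**Figure D2:**
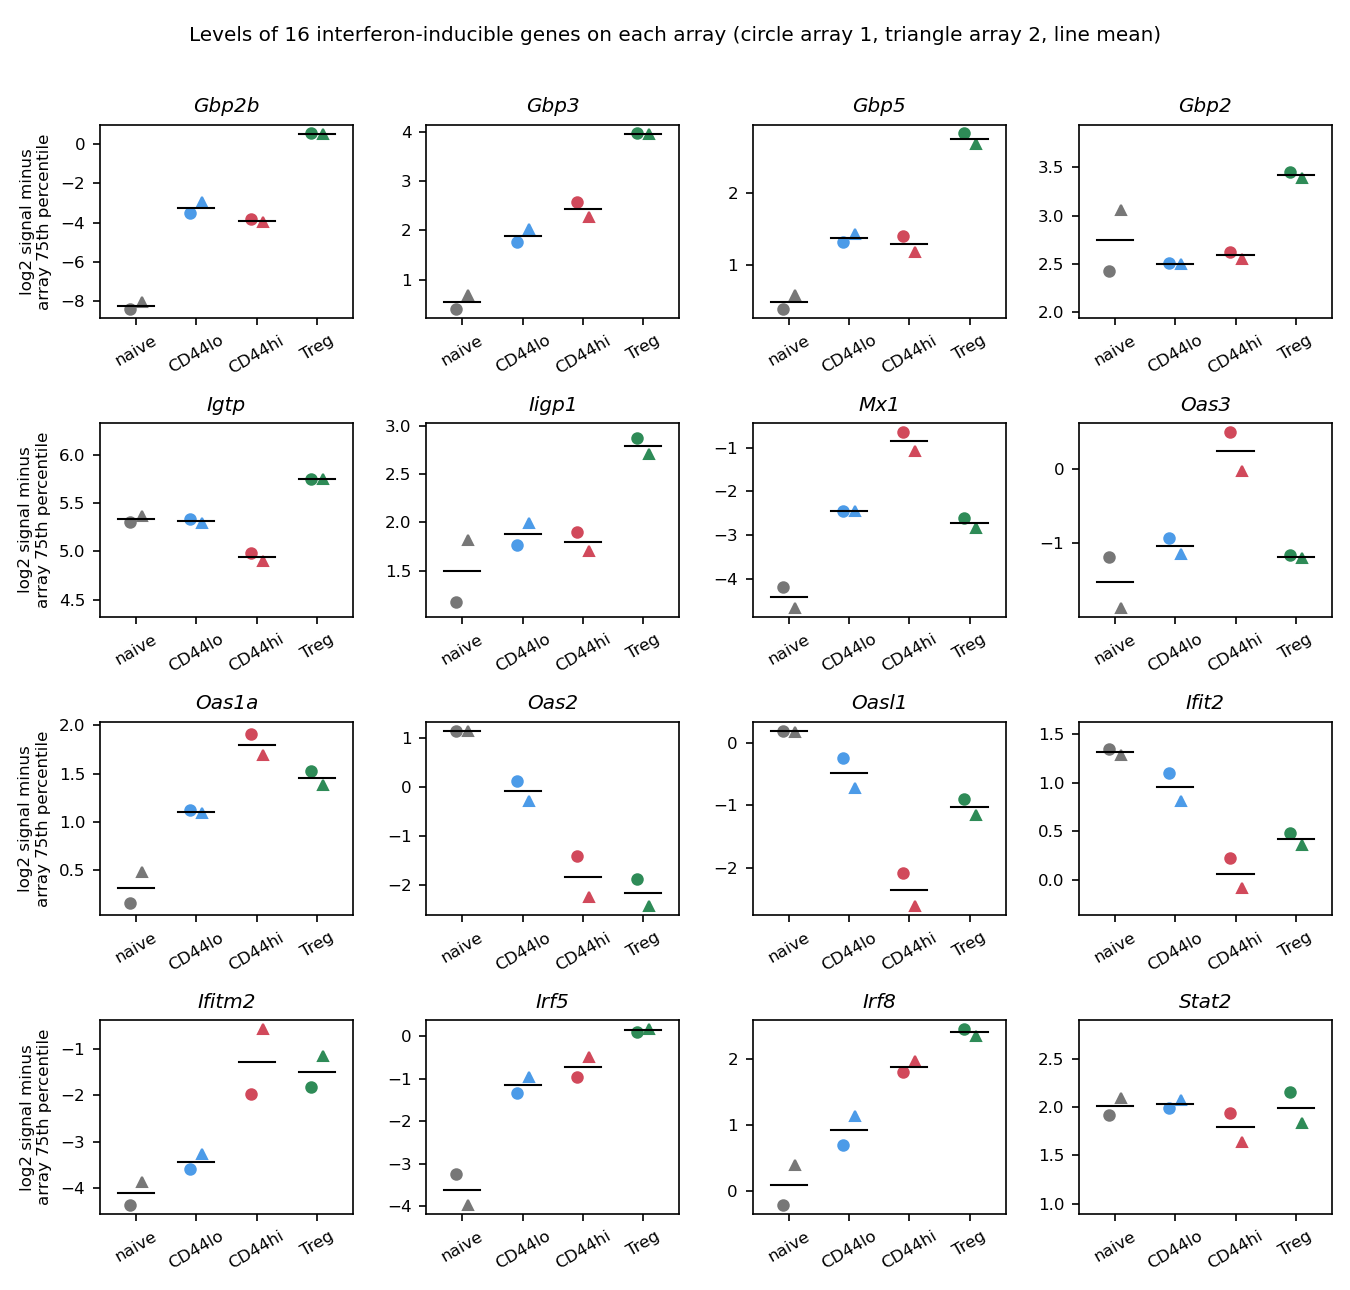
Levels of 16 member genes (log2 signal minus the array's 75th percentile, vertical axes differ) on array 1 (circles) and array 2 (triangles) of each group, with the group mean as a line. Gbp2b, Gbp3 and Gbp5 are highest in Treg, Mx1 and Oas3 in CD44hi, and Oas2, Oasl1 and Ifit2 in naive.

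The immunity-related GTPases, which strip the membrane from parasite vacuoles and are held in check by the regulatory members Irgm1, Irgm2 and Igtp, gave few calls. Of the 6 genes, 0 were called in CD44lo against naive, 2 were lower in CD44hi, and 1 was higher in Treg. Tgtp1 lay at 4.55 and 5.02 in naive, 4.47 and 4.36 in CD44lo, 3.83 and 3.71 in CD44hi, and 4.29 and 4.45 in Treg. The CD44hi arrays were the lowest, below every other array, and the naive arrays the highest. The fall in CD44hi was 2.02-fold (adjusted p 0.0103) and missed the threshold without CD44hi array 2 (adjusted p up to 0.0671 over the alternatives). Ifi47, another effector of this family, fell 1.90-fold in CD44hi (adjusted p 0.0268), a call lost without naive array 2, CD44hi array 2 or either CD44lo array (up to 0.149).

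Iigp1 was the member of this family that rose in Treg, from 1.18 and 1.82 on the naive arrays to 2.87 and 2.71, or 2.45-fold (adjusted p 0.0108, up to 0.0668 without a Treg array). CD44lo (1.77 and 1.99) and CD44hi (1.90 and 1.70) overlapped naive. Igtp lay at 5.75 on both Treg arrays and at 4.98 and 4.90 in CD44hi, a 1.76-fold difference (adjusted p 0.0149). That call was lost whichever of these 4 arrays was left out (up to 0.119), and against naive the CD44hi difference was -0.40 ± 0.13 (adjusted p 0.069). Irgm2 passed no test. The brightest of 3 Irgm1 probes stayed within -0.35 and 0.07 in all 6 comparisons and passed none, another stayed within -0.18 and -0.03, and the third fell in CD44hi against naive (log2 -1.46 ± 0.36, adjusted p 0.0287).

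The starts of Igtp, Irgm2 and Tgtp1 are shown because they hold both motifs in the same arrangement, although the 3 genes did not pass the same tests. In each, the gamma-activated site core ends 2 bases before the response element core begins. The sites are given with 10 bases on either side and the gamma-activated site core in capitals.
Igtp, chr11:58199511-58199519, + strand: aactagccatTTCTAGGAActgaaactga
Irgm2, chr11:58214902-58214910, + strand: aactagccatTTCCAGGAActgaaactga
Tgtp1, chr11:48992326-48992334, - strand: aactagccatTTCCAGGAAtcgaaactga

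Of these 29 bases, 28 are identical between Igtp and Irgm2, 27 between Irgm2 and Tgtp1 and 26 between Igtp and Tgtp1. Irgm1 has 2 overlapping response element cores close to its start and none of the gamma-activated kind.
Irgm1, chr11:48871441-48871450, - strand: cctgtttcaaGAAATAGAAAccgaaactga

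Mx1 was highest in CD44hi. The Mx proteins are dynamin-like GTPases that trap viral nucleoproteins, and in C57BL/6 mice the Mx1 gene carries a deletion that leaves no working protein. The levels were -4.19 and -4.67 in naive, -2.45 on both CD44lo arrays, -0.64 and -1.07 in CD44hi, and -2.62 and -2.84 in Treg. No groups overlapped: naive was lowest, CD44lo and Treg lay together and CD44hi was on top.

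The rise of Mx1 over naive was 12.0-fold in CD44hi (log2 3.58 ± 0.23, adjusted p 0.00012), 3.94-fold in CD44lo (0.00374) and 3.26-fold in Treg (0.00277). Its size depended on the processing. Over the alternatives the log2 rise ranged from 2.33 to 3.84 in CD44hi, 0.96 to 2.22 in CD44lo and 0.77 to 1.95 in Treg. CD44hi exceeded CD44lo 3.03-fold (adjusted p 0.00851, and 0.065 without CD44lo array 1) and Treg 3.66-fold (0.00464). CD44lo and Treg did not differ beyond the test (log2 -0.27 ± 0.23, adjusted p 0.613). The second Mx1 probe gave differences from naive of 2.37, 4.11 and 1.98 in CD44lo, CD44hi and Treg. Mx2 was called in none of the 6 comparisons, with differences between -0.38 and 0.33.

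The oligoadenylate synthetases moved in opposite directions within 1 family. These enzymes make short adenylate chains on sensing double-stranded RNA, which activates an RNase that cuts cellular and viral RNA. Of 12 genes, 10 were tested, and in CD44hi against naive 3 rose (Oas1a, Oas1f and Oas3) and 3 fell (Oas1d, Oas2 and Oasl1). In Treg against naive 2 rose (Oas1a and Oas1f) and 3 fell (Oas2, Oasl1 and Oasl2), and in CD44lo none passed. These counts are by the brightest probe, and a second probe of Oas3 adds calls in CD44lo and Treg.

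Oas2 lay at 1.16 and 1.15 in naive, 0.13 and -0.28 in CD44lo, -1.42 and -2.26 in CD44hi, and -1.89 and -2.45 in Treg. Naive was highest, CD44lo stood between, and the arrays of CD44hi and Treg overlapped at the bottom. Oas2 was 8.00-fold lower in CD44hi (adjusted p 0.00096) and 10.1-fold lower in Treg (0.00072) than in naive, and the difference of CD44lo from naive was -1.24 ± 0.33 (0.0975). It was also 3.39-fold lower in CD44hi than in CD44lo (adjusted p 0.0213) and 4.27-fold lower in Treg than in CD44lo (0.0166). Both of these last calls were lost without either CD44lo array, the first also without CD44hi array 2 and the second also without Treg array 2 (adjusted p up to 0.144 and 0.117). A second probe gave -3.31 in Treg against naive. It was not called in CD44hi against naive (-1.60 ± 0.66, adjusted p 0.124), nor against CD44lo in CD44hi (0.313) or Treg (0.0591).

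Oasl1, a relative that has lost the enzyme activity and restrains Irf7 translation, lay at 0.19 and 0.17 in naive, -0.24 and -0.73 in CD44lo, -2.09 and -2.62 in CD44hi, and -0.90 and -1.16 in Treg. The groups did not overlap, and CD44hi was lowest. It was 5.81-fold lower in CD44hi (adjusted p 6e-04) and 2.31-fold lower in Treg (0.0167) than in naive. CD44hi was also 3.67-fold below CD44lo (adjusted p 0.00664, and 0.0501 without CD44lo array 1), and Treg stood 2.52-fold above CD44hi (0.023). The 2 calls of Treg were lost without either Treg array, the first also without naive array 2 and the second also without CD44hi array 2, with adjusted p up to 0.116 and 0.153.

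Oas3 lay at -1.19 and -1.88 in naive, -0.93 and -1.15 in CD44lo, 0.50 and -0.03 in CD44hi, and -1.16 and -1.21 in Treg. CD44hi was above all others, and the ranges of Treg and naive overlapped. The rise in CD44hi was 3.41-fold over naive (adjusted p 0.00487) and 2.41-fold over CD44lo (0.0381), and Treg was 2.68-fold below CD44hi (0.0281). With the slide as a block the last 2 of these were not called (adjusted p up to 0.178 and 0.149 over the alternatives). They were also lost without CD44hi array 1, either CD44lo array or either Treg array, and the first of them without CD44hi array 2. The second Oas3 probe rose over naive in CD44lo (log2 1.03 ± 0.21, adjusted p 0.0431), CD44hi (2.09 ± 0.21, 0.00072) and Treg (1.11 ± 0.21, 0.0122), while the first gave 0.50 ± 0.28 in CD44lo and 0.35 ± 0.28 in Treg (0.336 and 0.381). On both probes CD44hi was highest.

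Oas1a lay at 0.16 and 0.48 in naive, 1.12 and 1.09 in CD44lo, 1.91 and 1.69 in CD44hi, and 1.53 and 1.38 in Treg. It rose 2.79-fold in CD44hi (adjusted p 0.00138) and 2.19-fold in Treg (0.00515), and the difference of CD44lo from naive was 0.79 ± 0.17 (0.0567). Oas1f rose 2.25-fold in CD44hi (0.00709) and 1.73-fold in Treg (0.0362), the latter a call lost without any 1 of the CD44lo, CD44hi or Treg arrays (up to 0.157). The neighbours in level, CD44hi and Treg, did not differ beyond the test for either gene (adjusted p 0.331 and 0.359).

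Oasl2 lay at 0.03 and 0.09 in naive, -0.15 and -0.44 in CD44lo, 0.32 and -0.12 in CD44hi, and -0.72 and -0.76 in Treg. Treg was lowest, while the other groups lay close together. Its differences were 1.74-fold between Treg and naive (adjusted p 0.0311) and 1.79-fold between Treg and CD44hi (0.0498). Neither call held with the slide as a block. The first was lost without naive array 2 or any CD44lo or Treg array and the second without each of the 8 arrays in turn, at adjusted p up to 0.163 and 0.227. The probe of Oas1d is annotated to Oas1h as well, so its 1.91-fold fall in CD44hi (adjusted p 0.0349) cannot be given to 1 of them, and it was lost without 7 of the 8 arrays in turn (up to 0.152). Oas1b, which carries an early stop in most laboratory strains, Oas1c and Oas1e passed no test, with differences between -0.24 and 0.28.

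Oas1a and Oas3 rose in CD44hi and are members of the chromosome 5 cluster with response element cores near their starts, shown with up to 10 bases on either side. The core did not go with the rise throughout the cluster. Oas1f rose in CD44hi and its window held no match to either core, while Oas1c held 2 response element cores and passed no test. Oas1a has a second match that overlaps the first by 4 bases.
Oas1a, chr5:120907536-120907545, - strand: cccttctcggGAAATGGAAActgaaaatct
Oas3, chr5:120777725-120777734, - strand: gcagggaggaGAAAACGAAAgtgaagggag

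Over all members, 42 of 52 matched an entry in the RefSeq promoter table, and 20 of these (47.6%) held the response element core in the 250 bases before a start, against 3.46% of all 27025 genes in the table. The gamma-activated site core was in 11 (26.2%), against 8.13% of all genes. The members were chosen by names that record induction by interferon, so these shares are a description. Some genes have several annotated starts, and per window the response element shares are 39.2% of 51 and 2.98% of 32851. Mx1, Mx2, Oas1b, Oas1d, Oas1e, Oas2, Iigp1, Ifi204 and Ifi27l2a are among the unmatched members.

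Matches occurred among called and uncalled members. The response element core was in 7 of 12 matched members that were called higher than naive in at least 1 group (Gbp2b, Gbp3, Gbp5, Ifitm2, Isg15, Oas1a and Oas3). It was in 1 of 6 called lower (Tgtp1), and in 10 of 20 that were called in no comparison, among them Ifit1, Ifit3, Gbp2, Irgm1 and Stat2. A match is a description of the letters and not evidence of a bound site.

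**Figure D3:**
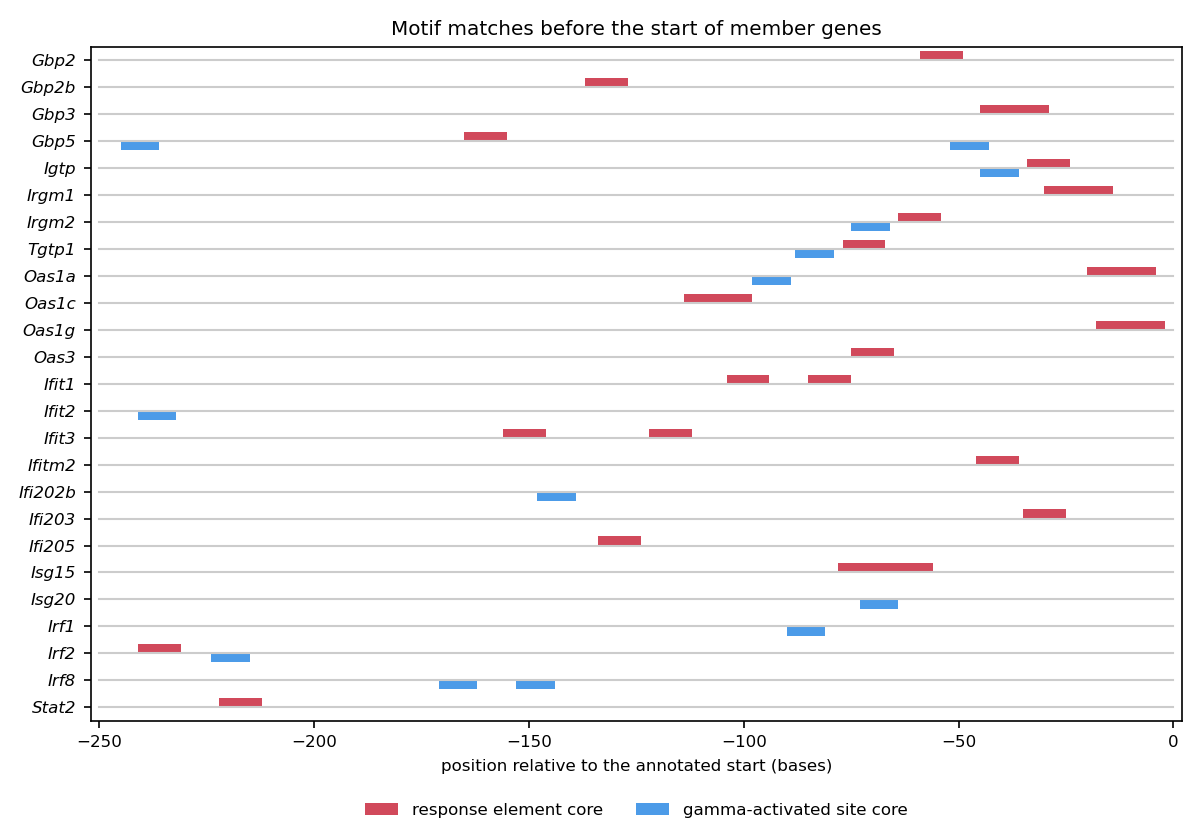
Positions of matches to the response element core (red) and the gamma-activated site core (blue) in the 250 bases before an annotated start of the 25 members that held either, in bases relative to that start (0 on the right). The motifs adjoin in Igtp, Irgm2 and Tgtp1, and 20 members hold the response element core.

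The proteins of the Ifit genes hold back viral RNA that lacks a proper cap. Of the 3 genes, only Ifit2 passed. It lay at 1.35 and 1.29 in naive, 1.1 and 0.81 in CD44lo, 0.22 and -0.09 in CD44hi, and 0.48 and 0.36 in Treg. The 4 groups did not overlap, with CD44hi lowest. The fall was 2.39-fold in CD44hi (adjusted p 0.00303) and 1.87-fold in Treg (0.0142, lost without either Treg array at up to 0.105 and on a second probe at 0.132), and CD44hi lay 1.86-fold below CD44lo (0.0275, not called with the slide as a block). That last call was also lost without any 1 of the CD44lo, CD44hi or Treg arrays (up to 0.222).

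Ifit1 and Ifit3, the partners of Ifit2, spread more widely within groups and were not called. Ifit3 in CD44hi lay at 1.80 and 1.00, around the naive levels of 1.40 and 1.47, and a second probe gave 0.31 ± 0.36 there (adjusted p 0.563). Both genes hold 2 response element cores upstream of their starts, the nearer ones of which are shown beside the lack of a call.
Ifit1, chr19:34640804-34640813, + strand: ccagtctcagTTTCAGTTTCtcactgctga
Ifit3, chr19:34583407-34583416, + strand: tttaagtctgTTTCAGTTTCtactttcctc

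Ifitm1 and Ifitm2, membrane proteins that stop viruses from fusing with the cell, rose in CD44hi. Ifitm2 lay at -4.36 and -3.86 in naive, -3.59 and -3.27 in CD44lo, -1.97 and -0.58 in CD44hi, and -1.82 and -1.16 in Treg. The CD44hi arrays were far apart, with the Treg arrays between them, and both groups lay above naive and CD44lo. The rise over naive was 7.12-fold in CD44hi (adjusted p 0.00607) and 6.15-fold in Treg (0.0098, and 0.0719 without Treg array 2). A second probe gave 1.53 ± 0.44 in Treg against naive (adjusted p 0.0575). Over the alternatives the log2 rise of Ifitm2 over naive ranged from 1.86 to 3.53 in CD44hi and 1.70 to 2.95 in Treg. On slide 1 the difference of CD44hi from naive was 1.89 and on slide 2 it was 3.78. The 4.44-fold difference from CD44lo (adjusted p 0.0376) was not called with the slide as a block, nor without any array except CD44hi array 1 (up to 0.207).

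Ifitm1 lay at -2.59 and -2.34 in naive, -2.82 and -2.92 in CD44lo, -1.66 and -0.69 in CD44hi, and -2.65 and -1.94 in Treg. CD44hi alone stood above the rest. It exceeded naive 2.45-fold (adjusted p 0.04) and CD44lo 3.25-fold (0.0346), and both calls were lost without CD44hi array 2 or any 1 of the naive and CD44lo arrays (up to 0.171 and 0.159). Ifitm3 had its highest mean in CD44hi as well (-0.57) but was not called, at 0.46 ± 0.24 against naive (adjusted p 0.198).

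The p200 genes, which encode nuclear sensors of DNA, were not called: the brightest probes of Ifi203, Ifi204 and Ifi205 stayed between -0.28 and 0.07 in all 6 comparisons, and the other tested probes of Ifi203 and Ifi204 between -0.29 and 0.54. A second Ifi205 probe was well above background on only 1 array and was not tested. The probe used for Ifi205 is annotated to Ifi204 and Ifi211 too. Among the other Ifi genes, Ifi44 lay at -2.72 and -2.31 in naive, -3.12 and -3.20 in CD44lo, -2.92 and -2.79 in CD44hi, and -3.28 and -3.70 in Treg. Treg was lowest, 1.97-fold below naive (adjusted p 0.0198), and the call was lost without naive array 2 or Treg array 2 (up to 0.136) and missed on a second probe (0.057). Ifi27l2a rose 1.81-fold in CD44hi (adjusted p 0.0178, lost without either CD44hi array at up to 0.0983). Ifi30 and Ifi35 passed no test. Ifih1, a cytosolic sensor of long double-stranded RNA, differed by 0.53 ± 0.20 in CD44hi against naive on its brightest probe (adjusted p 0.0875) and rose by 1.16 ± 0.24 on the other (0.0155).

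Isg15, a ubiquitin-like protein joined to other proteins after interferon, lay at 0.86 and 0.50 in naive and at 1.42 and 1.31 in CD44hi, a 1.61-fold rise (adjusted p 0.0238). This call was lost without any 1 of the CD44lo, CD44hi or Treg arrays (up to 0.144). Isg20, an RNA exonuclease, rose 2.12-fold in Treg (adjusted p 0.00984, and 0.0675 without Treg array 1) and 1.72-fold in CD44hi (0.0275, lost without any 1 of the CD44lo and CD44hi arrays at up to 0.12). Isg15 is shown because 3 overlapping cores run through its promoter, of which the middle one is capitalised.
Isg15, chr4:156200881-156200890, - strand: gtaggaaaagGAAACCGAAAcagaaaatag

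**Figure D4:**
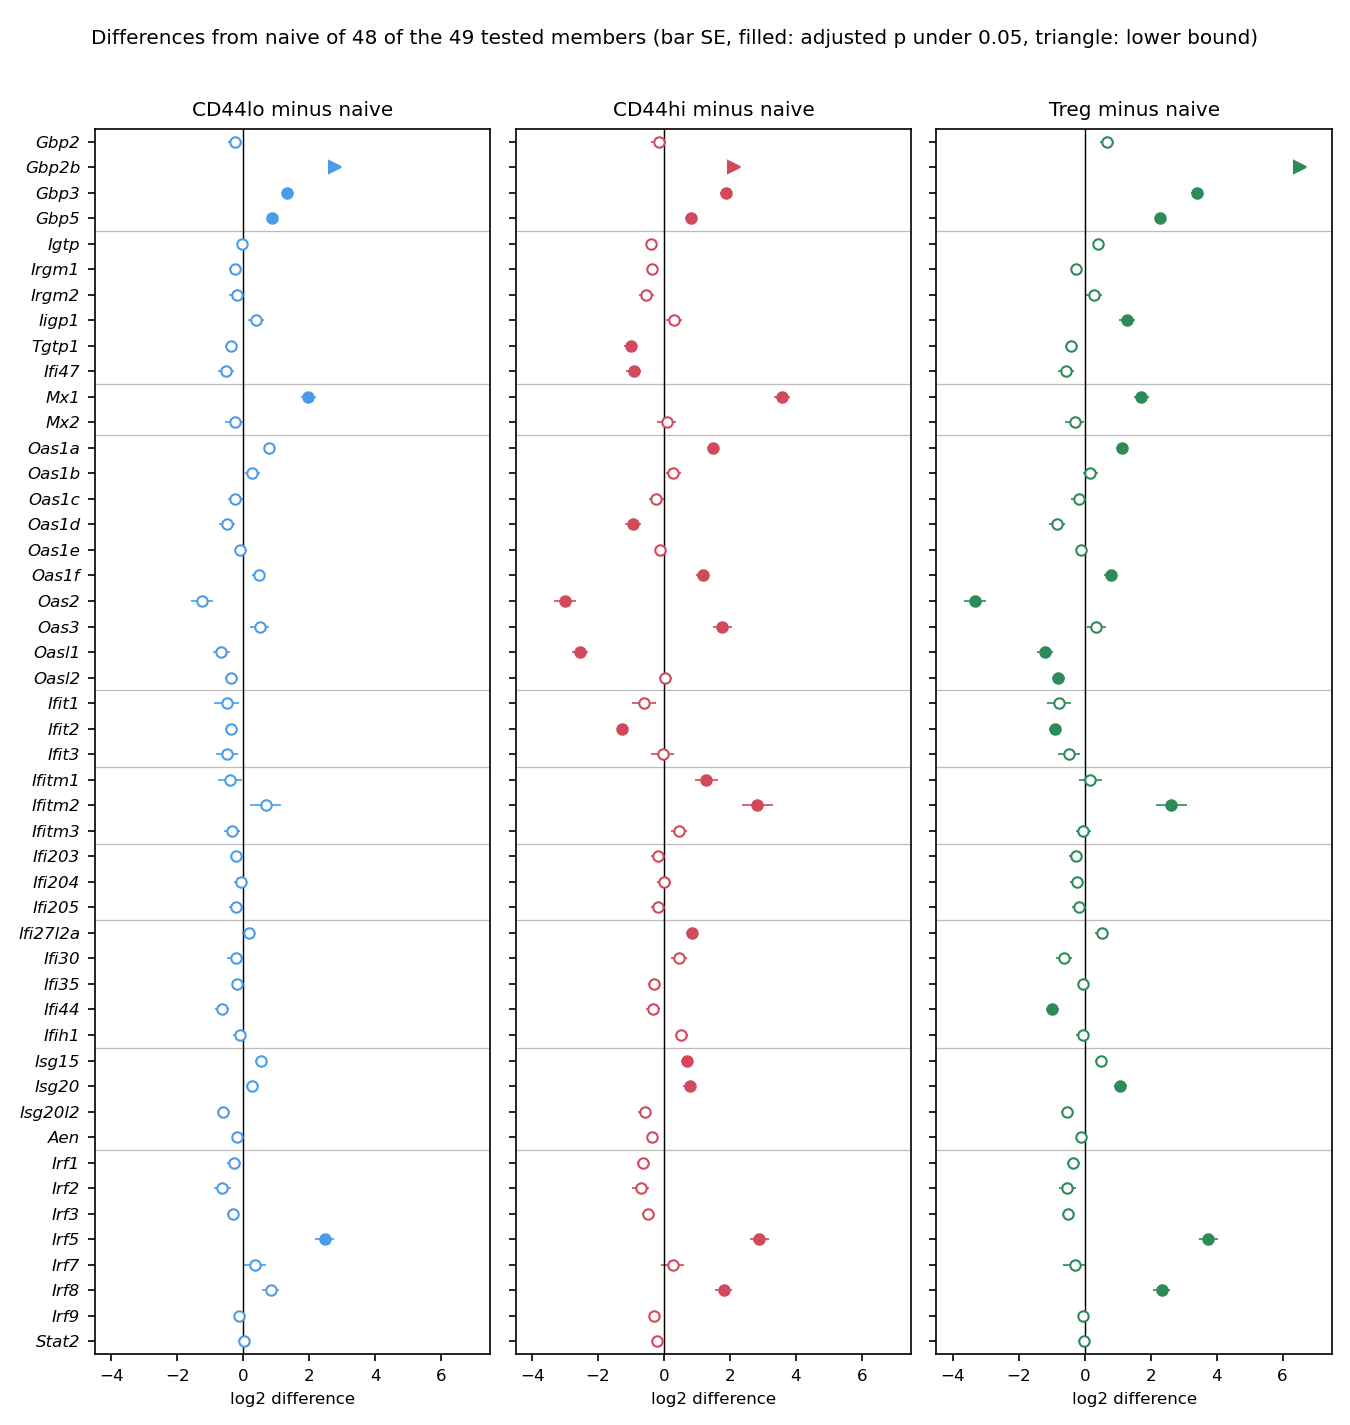
Log2 difference from naive of 48 of the 49 tested members in CD44lo, CD44hi and Treg, with bars for the standard error of the fit, filled where the adjusted p was under 0.05 and separated by lines between families. Triangles stand for Gbp2b, for which a lower bound on the processed signal is drawn. Most points lie within 1 log2 unit of 0, while the bound of Gbp2b reaches 6.54 in Treg and Oas2 falls to -3.33.

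Stat2 and Irf9, which carry the type I interferon signal to the genome, were nearly level across the groups on their brightest probes. Stat2 lay at 1.92 and 2.09 in naive, 1.99 and 2.07 in CD44lo, 1.94 and 1.64 in CD44hi, and 2.15 and 1.83 in Treg. Irf9, the DNA-binding part of their complex, lay at 2.96 and 3.10, 2.93 and 2.89, 2.77 and 2.67, and 3.01 and 2.96 in the same order of groups. On these probes all differences of both genes were within -0.31 and 0.27 and none passed. A second Irf9 probe gave 0.63, 0.64 and 0.70 (SE 0.47 each) in CD44lo, CD44hi and Treg against naive. It was not called either (adjusted p 0.452, 0.346 and 0.315).

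Irf1, a factor induced by interferon gamma, lay at 5.92 and 6.38 in naive, 5.74 and 5.99 in CD44lo, 5.55 and 5.49 in CD44hi, and 5.77 and 5.83 in Treg. The largest difference on this probe was -0.63 ± 0.20 in CD44hi against naive (adjusted p 0.0542). A second Irf1 probe showed no fall there (0.07 ± 0.34, adjusted p 0.901). It gave 0.42 in CD44lo and 0.21 in Treg against naive, and neither was called (0.497 and 0.675). Irf7, which amplifies type I interferon production, lay at 1.40 and 0.30 in naive, 1.30 and 1.09 in CD44lo, 1.25 and 0.96 in CD44hi, and 0.68 and 0.41 in Treg. The naive arrays of Irf7 spanned all the others, and none of the 6 comparisons passed.

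Irf5 and Irf8, relatives of these factors, rose in CD44hi and Treg over naive. Irf5, a factor best known for driving inflammatory cytokines in macrophages and B cells, lay at -3.24 and -3.97 in naive, -1.33 and -0.95 in CD44lo, -0.95 and -0.49 in CD44hi, and 0.11 and 0.17 in Treg. Naive was lowest and Treg highest, and CD44lo and CD44hi touched. Over naive it rose 5.52-fold in CD44lo (adjusted p 0.00406), 7.41-fold in CD44hi (0.00067) and 13.4-fold in Treg (0.00028). Over the alternatives the log2 rise ranged from 1.68 to 2.83 in CD44lo, 2.09 to 3.25 in CD44hi and 2.92 to 4.11 in Treg. No neighbouring pair above naive passed the test (0.456 for CD44hi against CD44lo and 0.15 for Treg against CD44hi).

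Irf8, a factor of B cells, dendritic cells and monocytes, lay at -0.22 and 0.39 in naive, 0.70 and 1.13 in CD44lo, 1.81 and 1.97 in CD44hi, and 2.46 and 2.36 in Treg. The groups did not overlap. It rose 3.51-fold in CD44hi (adjusted p 0.0026) and 5.03-fold in Treg (0.00103), and the difference of CD44lo from naive was 0.83 ± 0.25 (0.139). A second probe rose in CD44lo over naive (1.18 ± 0.20, adjusted p 0.0206) and in CD44hi over CD44lo (0.96 ± 0.20, 0.0351), where the first gave 0.98 ± 0.25 (0.061). Treg exceeded CD44lo 2.82-fold (adjusted p 0.0201), a call lost whichever array of those groups was left out (up to 0.146).

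Markers of other cells that use Irf5 and Irf8 moved in part with these values. The summed linear level of 10 B cell markers (75th percentile as 1) was 0.254 to 0.446 in naive, 1.59 to 2.33 in CD44lo, 3.58 to 4.21 in CD44hi and 4.25 to 4.48 in Treg. Of the 8 tested, 5 rose in CD44hi and 4 in Treg over naive, with Cd22 and Cd79b the main contributors. Cd22 was -6.29 and -7.52 in naive against 1.07 and 1.37 in CD44hi. Other markers did not follow: Cd79a lay between -6.44 and -5.62 on all arrays, and Fcer2a was not well above background on any array.

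Of 14 myeloid and dendritic markers, 11 were tested. In CD44hi 3 rose (27.3%) and 1 fell (9.09%) against naive, beside 13.3% and 14.5% of all genes. In Treg 2 rose and 2 fell (18.2% each), beside 11.6% and 10.3% of all genes. The sum of the 14 markers was 0.665 to 0.974 in naive, 0.901 to 1.1 in CD44lo, 1.98 to 2.13 in CD44hi and 1.42 to 1.77 in Treg. Lyz2 and Cybb rose, Itgax fell, and Clec9a and Csf3r were not well above background on any array. The part of other cells in the levels of Irf5 and Irf8, or of any other member, was not tested. In RNA of whole populations, more cells of a kind and more RNA per cell cannot be told apart.

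Outside the named families, interferon gamma and its receptor changed. Ifng, the gene of interferon gamma, lay at -5.24 and -4.14 in naive, 0.89 and 1.92 in CD44lo, 3.73 and 4.22 in CD44hi, and 1.44 and 1.71 in Treg. It rose 68.5-fold in CD44lo (adjusted p 6e-04), 405-fold in CD44hi (6.4e-05) and 77.2-fold in Treg (0.00023). Among 8 interferon genes listed, 2 could be tested.

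Of 17 genes for interferon receptors and their signalling, 16 were tested. Against naive 0 were called in CD44lo, where 5.3% of all genes were called. In CD44hi 1 rose (6.25%) and 6 fell (37.5%), against 13.3% and 14.5% of all genes. In Treg 2 rose (12.5%) and 4 fell (25.0%), against 11.6% and 10.3% of all genes. Ifngr2, the signalling chain of the interferon gamma receptor, lay at 3.09 and 3.47 in naive, 2.49 and 2.25 in CD44lo, 0.04 and 0.10 in CD44hi, and 2.30 and 1.98 in Treg. CD44hi was far below the rest, 9.28-fold under naive (adjusted p 0.00011), 4.93-fold under CD44lo (0.00238) and 4.20-fold under Treg (0.00223). Ifngr1, the binding chain, was 1.71-fold higher in Treg than in naive (adjusted p 0.0174). Usp18, an inducible brake on the type I receptor, was 2.84-fold lower in CD44hi than in naive (0.0168), and Socs1, a brake on Jak kinases, was 1.71-fold higher in Treg (0.0382).

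Of 16 nucleic acid sensors and adaptors, 13 were tested. Against naive 1 rose and 1 fell in CD44hi (7.69% each, beside 13.3% and 14.5% of all genes). In Treg 2 rose (15.4%) and 1 fell (7.69%), beside 11.6% and 10.3% of all genes. Tlr7, an endosomal receptor for single-stranded RNA, went opposite ways, 3.73-fold lower in CD44hi (adjusted p 0.00374) and 2.75-fold higher in Treg (0.0129), which left Treg 10.3-fold above CD44hi (0.00134). Eif2ak2, the kinase that halts translation on sensing double-stranded RNA, rose 2.16-fold in both (0.011 and 0.0134).

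A list of 61 other interferon-inducible genes, 49 of them tested, gave 3 higher and 1 lower in CD44lo, 7 higher and 2 lower in CD44hi, and 7 higher and 1 lower in Treg. In CD44lo these are 6.12% higher and 2.04% lower, beside 4.54% and 0.762% of all genes. The 14.3% called higher in CD44hi and in Treg lie near the 13.3% and 11.6% of all genes, and the 4.08% and 2.04% called lower stand beside 14.5% and 10.3%. The median differences from naive were -0.19, -0.16 and -0.19. Cxcl10, a chemokine for Th1 cells, was not well above background in naive. On the processed signal it was at least 60.4-fold higher in CD44hi, at least 38.4-fold higher in Treg and at least 19.5-fold higher in CD44lo. Other background corrections were not run for it. Casp1 and Casp4, the caspases of the inflammasomes, rose 18.9-fold and 21.0-fold in CD44hi (adjusted p 8.4e-05 and 0.00011) and 6.71-fold and 10.6-fold in Treg (5e-04 and 0.00032). Irf4, a relative outside the naming rule that T cell receptor signals induce, rose over naive 3.71-fold in CD44lo, 6.11-fold in CD44hi and 7.59-fold in Treg (adjusted p 0.00111, 0.00011 and 8.5e-05).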

How the data were processed

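The image software was Agilent Feature Extraction 9.5.1.1, as the headers name it. Deposited for every array is an intensity per spot, background-subtracted and not normalized between arrays, and deposited flags for outlier, saturated and above-background spots. The authors' deposited value table is on a log2 scale. Its column medians were 6.86 to 6.88, so it is scaled between arrays by a step not given in the sources used here. The submitters' processing notes name limma.

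Of 45018 spots, 1639 were controls. Outlier spots were left out, spots of a probe averaged, and log2 signals set against each array's 75th percentile. Names were updated through RefSeq, 22972 probes by accession. The brightest probe stood for a gene. A gene was tested if some group had that probe well above background on its 2 arrays, with limma 3.58.1 in R 4.3.3 over all 8 arrays in 1 fit (4 residual and 2.62 prior degrees of freedom, 2-sided, ± is the SE). The number of arrays limits the precision: an exact permutation test of 2 against 2 cannot go below p = 0.333. The fit was also run on simulated data with independent noise, the same spread in every group and no array effects. That check does not cover arrays that differ from each other as the naive ones do. Motifs were searched on both strands of RefSeq promoters of GRCm38.p6, while the array annotation names build mm7, of which no coordinates are used. Values on every array are given for the members with the 4 largest called differences per direction and comparison and, whatever their call, for Stat2, Irf1, Irf7 and Irf9, while the values of 1 further member are not reported here. The members and lists were chosen with earlier results of these data known. Alternatives covered background, scaling, filters, probe choice, blocks, samples in the fit and leaving out each array.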

Additional observations from a re-analysis of the deposited data

How the results depend on the processing

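Of the 63 calls of a member in a comparison, 29 were made under all of up to 18 alternatives, 34 were missed under at least 1, and none changed sign. Alternatives were run for the members and not for the other gene lists. Without 1 array, member counts ranged from 3 to 20 in CD44lo, 13 to 32 in CD44hi and 9 to 29 in Treg against naive. They ranged from 0 to 14 in CD44hi against CD44lo (0 without CD44lo array 1), 2 to 10 in Treg against CD44lo and 4 to 14 in Treg against CD44hi. With the authors' value table the counts were 8 in CD44lo against naive, 14 in CD44hi against CD44lo, 9 in Treg against CD44lo and 17 in Treg against CD44hi. With every probe tested by itself, CD44lo against naive gave 8 probes, CD44hi against naive 32 and CD44hi against CD44lo 12. Fits of only the 2 groups gave 12 in CD44hi against naive, 4 in CD44hi against CD44lo and 9 in Treg against CD44lo. With an intensity trend CD44hi against CD44lo gave 11 and Treg against CD44lo 10. Without the filter on dim probes, CD44hi against CD44lo gave 2, Treg against CD44lo 3 and Treg against CD44hi 4. The normexp background gave 9 in Treg against CD44lo, quantile normalization 14 in Treg against CD44hi, and the slide block 4 in CD44hi against CD44lo. The causes were not tested.

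The labels do not say what the number shared by arrays of different groups marks. The deviations of same-numbered arrays from the group means correlated between 0.056 and 0.331 over 12 pairs, and with 2 arrays a group those of different numbers give the same values with the sign turned. With the replicate number as a block, 6, 22, 17, 9, 6 and 10 members were called in CD44lo, CD44hi and Treg against naive, CD44hi against CD44lo, Treg against CD44lo and Treg against CD44hi, where the fit without it called 5, 21, 16, 7, 5 and 9. Signal over background limits Gbp2b in naive to a bound and leaves Ifi202b and Oas1g without a level.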
